A study of Mus musculus with 18 samples.

Results

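The lens crystallins Cryaa, Cryab, Cryba1, Cryba2, Cryba4, Crybb1, Crybb2, Crybb3 and Crygs were followed through 18 arrays of mouse retina. They were taken as all probe sets that the platform annotation assigned to 1 of these genes alone, which gave 11 probe sets for 9 genes, of 45037 probe sets for 18193 genes in all. Cryab had 3 probe sets and each other gene had 1, and the probe set of highest mean signal stands for Cryab unless another is named. Retinas came from RPE65-/- mice, which lack the retinoid isomerase of the pigment epithelium, and from C57BL/6 mice as controls, at ages of 2, 4 and 6 months. Each of the 6 groups held 3 retinas, called biological replicates in the design text, with 1 array each. The labels give no sex, litter or strain background of the mutants, so the genotype cannot be told apart from a difference in background between the colonies. Values are ratios: for 54.3% of probe sets, those of highest signal for each of the 9 genes included, 1 is the probe set's median over the 18 retinas. The remaining probe sets are dim and were divided by a fixed value, so their median lies below 1. The floor of the deposited values is 0.01.

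Crystallins are the abundant soluble proteins of the vertebrate lens, where their dense, ordered packing gives transparency and refraction. The alpha crystallins Cryaa and Cryab are small heat shock proteins that act as chaperones. The beta and gamma crystallins share a fold of Greek key motifs and serve mainly as structural proteins. Cryab is also made in many tissues outside the lens, heart, muscle and glia among them, and transcripts of crystallins of each class have been described in the retina.

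The crystallins varied widely between single retinas of 1 group, and they varied together. On the log2 ratio 5 of them, each with values at the floor, varied more than every other probe set, which did not hold on a scale that damps low signals. The same retina was the highest for all 9 genes, RPE65-/- retina 3 of 2 months, and control retina 1 of 6 months was second for all 9. RPE65-/- retina 1 of 2 months was the lowest or shared the lowest value for 8 of 9 genes. The exception was Crybb1, which was lowest in RPE65-/- retina 4 of 6 months. No crystallin passed the test for genotype, nor that for age. On the scale of ratios Cryab followed the same order of retinas over a narrower range, and Cryaa over a range as wide as that of the beta crystallins.

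**Figure D1:**
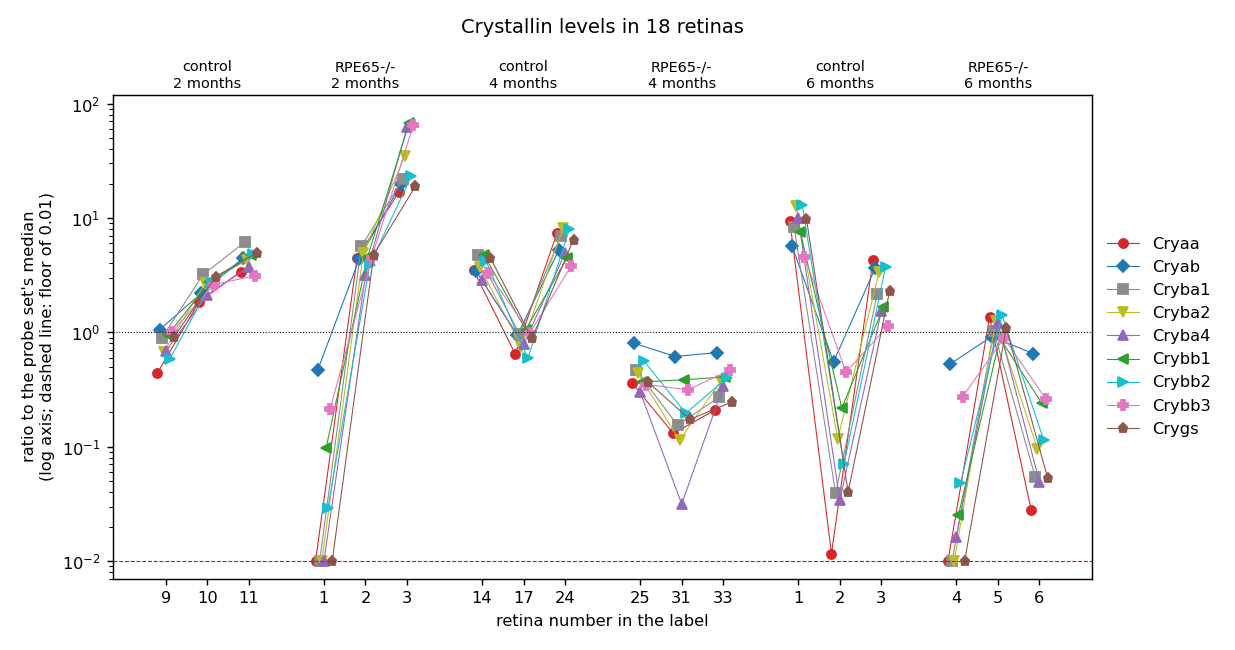
Ratio of each crystallin to the median of its probe set (vertical log axis) in each of 18 retinas (horizontal axis, retina number in the label, by group), with thin lines joining the retinas of a group only to guide the eye. All 9 genes are highest in RPE65-/- retina 3 of 2 months, between 16.8 and 67.8, and Cryab (blue diamonds) stays at 0.466 or above where other genes reach the floor of 0.01.

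Facts of the arrays that touch these values come first. Arrays of 6 months were brighter: their median unscaled signal was 32.7 to 45.7, against 6.80 to 14.3 for the younger ages, with both genotypes in each range. Brightness and the age of 6 months cannot be told apart. The submitters' processing notes name RMA for 18 samples and GCOS for 16. The ones without GCOS are RPE65-/- retinas 1 and 2 of 2 months. Rpe65, the targeted gene, was lower in the mutants over the mean of the ages (log2 -5.96 ± 0.73, adjusted p = 0.000207 by limma with Benjamini-Hochberg). Retinal identity was plain: 11 of 12 photoreceptor genes listed were measured, with a summed array-scaled signal of 12409 to 15101 in RPE65-/- retinas and 15418 to 22847 in controls.

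Cryaa, an alpha crystallin made mostly in the lens, had ratios of 0.441, 1.85 and 3.39 in control retinas 9, 10 and 11 of 2 months. RPE65-/- retinas 1, 2 and 3 of that age gave 0.01, 4.50 and 16.8. The mutants of 2 months thus lay both below and above all of their controls. At 4 months controls 14, 17 and 24 gave 3.48, 0.647 and 7.34, and RPE65-/- retinas 25, 31 and 33 gave 0.363, 0.131 and 0.209, with no overlap. At 6 months controls 1, 2 and 3 gave 9.46, 0.0116 and 4.32, and RPE65-/- retinas 4, 5 and 6 gave 0.01, 1.35 and 0.0280. The groups of 6 months overlapped, with control retina 2 close to the floor.

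Cryab, the alpha crystallin with wide expression, had ratios of 1.06, 2.19 and 4.45 in control retinas 9, 10 and 11 of 2 months. The mutants of that age gave 0.466, 4.38 and 19.9 in retinas 1, 2 and 3. Retina 3 was high and retina 1 low, as for Cryaa, but no Cryab value came near the floor. At 4 months controls 14, 17 and 24 gave 3.46, 0.944 and 5.25, and mutants 25, 31 and 33 gave 0.803, 0.615 and 0.665. At 6 months controls 1, 2 and 3 gave 5.73, 0.552 and 3.64, and mutants 4, 5 and 6 gave 0.527, 0.918 and 0.652. In this probe set groups did not overlap at 4 months and did at the other ages. The second Cryab probe set ran from 0.341 in RPE65-/- retina 1 to 21.4 in RPE65-/- retina 3 of 2 months. Its groups overlapped at 4 months as well, with control 17 at 0.743 and mutants 25 and 33 at 0.842 and 0.770. The third lay below the array's median signal on all 18 arrays, with ratios of 0.0469 to 0.757 and a median of 0.355, and did not carry this pattern: RPE65-/- retina 3 of 2 months was at 0.460.

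Among the acidic beta crystallins, Cryba1 reached 21.9 in RPE65-/- retina 3 of 2 months, where retina 2 was at 5.64 and retina 1 at the floor of 0.01. The 3 controls of 2 months, retinas 9, 10 and 11, gave 0.890, 3.21 and 6.16. One mutant therefore lay below and 1 above all 3 controls. At 4 months Cryba1 was 4.77, 0.970 and 6.95 in controls 14, 17 and 24 against 0.471, 0.154 and 0.271 in mutants 25, 31 and 33. At 6 months it was 8.40, 0.0390 and 2.18 in controls 1, 2 and 3 against 0.01, 1.03 and 0.0541 in mutants 4, 5 and 6. Mutants and controls were separate at 4 months and overlapped at 6 months. Cryba2 spanned 0.01 to 35.1 and Cryba4 spanned 0.01 to 61.8 over the 18 retinas. Both had the same retinas at the top and were at the floor in RPE65-/- retina 1 of 2 months. Cryba2 was also at the floor in RPE65-/- retina 4 of 6 months.

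Among the basic beta crystallins, Crybb2, a major soluble protein of the mature lens, had ratios of 0.589, 2.71 and 4.84 in control retinas 9, 10 and 11 of 2 months. The mutants of that age gave 0.0293, 3.88 and 23.1 in retinas 1, 2 and 3. The spread within the mutants of 2 months was wider than the whole range of their controls. At 4 months controls 14, 17 and 24 gave 4.21, 0.592 and 7.96, and mutants 25, 31 and 33 gave 0.559, 0.196 and 0.403. At 6 months controls 1, 2 and 3 gave 12.9, 0.0703 and 3.71, and mutants 4, 5 and 6 gave 0.0479, 1.41 and 0.115. The lowest control and the highest mutant of 4 months, 0.592 and 0.559, nearly met.

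Crybb1 and Crybb3 had the highest peaks, 67.8 and 64.9 in RPE65-/- retina 3 of 2 months. Cryba4 came next with 61.8, while the other 6 genes stood at 16.8 to 35.1 in that retina. The retina that was high for all genes was thus higher, against each gene's own median, for these 3. Their array-scaled signals in that retina were the lowest of the crystallins, at 2086 for Cryba4, 2369 for Crybb3 and 2586 for Crybb1. The other 6 genes stood at 2887 (Cryba2) to 3869 (Cryab) there. The higher ratios of these 3 therefore rest on lower medians, not on higher signals in that retina. Crybb1 in the mutants of 4 months was 0.368, 0.385 and 0.408, the closest agreement of any crystallin in any group. Its controls of that age were 4.76, 1.05 and 4.49 in retinas 14, 17 and 24. Crybb3 ranged from 0.214 in RPE65-/- retina 1 of 2 months, without reaching the floor.

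Crygs, the gamma crystallin made in secondary fibre cells of the mature lens, was 0.912, 3.07 and 4.95 in control retinas 9, 10 and 11 of 2 months. Mutants 1, 2 and 3 of that age gave 0.01, 4.78 and 19.0. At 4 months controls 14, 17 and 24 were at 4.49, 0.883 and 6.46 and mutants 25, 31 and 33 at 0.364, 0.173 and 0.245. Its pattern over the retinas was nearly that of Cryba1, with a Pearson's r of 0.999 over 18 arrays. At 6 months controls 1, 2 and 3 gave 9.76, 0.0401 and 2.31, and mutants 4, 5 and 6 gave 0.01, 1.09 and 0.0528. Control retina 2 of 6 months was therefore low among controls for a gamma crystallin as for the alpha and beta ones.

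Since the members moved together, their promoters were searched for short motifs in the 250 bases before the start site of the RefSeq promoter table. RefSeq promoter sequences (GRCm38.p6) matched 8 of 9 members, and Cryab was not among them. For 4 of 8 the start site is the outer end of the gene's annotated span. For Crybb3, Crybb1, Cryba2 and Cryba4 it lies 652, 1257, 5699 and 11107 bases inside that span, so other starts are annotated upstream for these. The letters TGCTGA, a core of the element bound by Maf factors, which drive crystallin genes in lens fibre cells, were found on either strand in 7 of 8, all but Crybb2. Of 32851 promoters of the same length 16.1% held it. TATAAA, the TATA box, was in 3 of 8 (Cryba1, Crybb1 and Crygs) and in 12.4% of all promoters. GAANNTTC, a core of the heat shock element, reads the same on both strands and was in 0 of 8 and in 6.69% of all promoters. TGCTGA and TATAAA did not overlap in any of these windows. The 150 bases before the start are shown for an alpha, 2 acidic beta and 1 basic beta crystallin, with matches to TGCTGA and TATAAA in capitals:
Cryaa, chr17:31677781-31677930, plus strand: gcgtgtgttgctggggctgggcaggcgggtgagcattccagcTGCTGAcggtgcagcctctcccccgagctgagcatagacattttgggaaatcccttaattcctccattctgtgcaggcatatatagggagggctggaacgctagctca
Cryba1, chr11:77725294-77725443, minus strand: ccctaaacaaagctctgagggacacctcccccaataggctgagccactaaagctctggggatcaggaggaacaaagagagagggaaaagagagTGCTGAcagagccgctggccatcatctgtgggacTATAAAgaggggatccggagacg
Cryba4, chr5:112252519-112252668, minus strand: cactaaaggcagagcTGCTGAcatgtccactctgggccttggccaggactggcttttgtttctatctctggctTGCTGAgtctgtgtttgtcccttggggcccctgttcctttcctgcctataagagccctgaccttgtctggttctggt
Crybb1, chr5:112255670-112255819, plus strand: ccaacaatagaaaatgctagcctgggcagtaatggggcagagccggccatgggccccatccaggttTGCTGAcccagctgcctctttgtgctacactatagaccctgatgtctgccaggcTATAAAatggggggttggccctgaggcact

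In these the TGCTGA match began at -108 in Cryaa, at -57 in Cryba1, at -135 and -77 in Cryba4 and at -84 in Crybb1, counted from that start site. Cryba4 had a further match at -182, before the stretch shown. Of the remaining members, Crybb3 had a match at -67, Cryba2 at -149 and Crygs at -200. A match describes the letters only and is not evidence of binding.

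The spread between retinas of 1 group was among the largest on the arrays. The SD of the log2 ratio, pooled over the 6 groups, was 3.66 for Cryaa, the highest of all 45037 probe sets, and 3.56 for Cryba4, 3.37 for Cryba2, 3.36 for Cryba1 and 3.33 for Crygs, which took ranks 2 to 5. Crybb2 followed with 2.99 at rank 10, Crybb1 with 2.55 at rank 23 and Crybb3 with 1.95 at rank 411. Cryab had 1.50 at rank 4036, and its second probe set 1.60 at rank 2726. The median SD of all probe sets was 0.445. Many probe sets above Cryab in that order were dim, and among the 4504 probe sets of highest mean signal, whose median SD was 0.166, 15 exceeded Cryab. The 5 genes of highest SD are those with values at the floor, in 1 or 2 arrays each. On the scale log2(signal + 16), which damps low signals, Cryaa kept rank 1 with 2.49, while Cryba2 had rank 6 and Cryba4 rank 10. Crygs, Crybb2 and Cryba1 had ranks 2, 3 and 4. Cryab had rank 20 with 1.43, close to Crybb3 at rank 16 with 1.54. Without RPE65-/- retinas 2 and 3 of 2 months, an omission chosen after seeing the data, Cryab had 1.11 and the 7 beta and gamma members 1.08 to 2.65, so the narrower spread of Cryab did not hold against all of them.

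**Figure D2:**
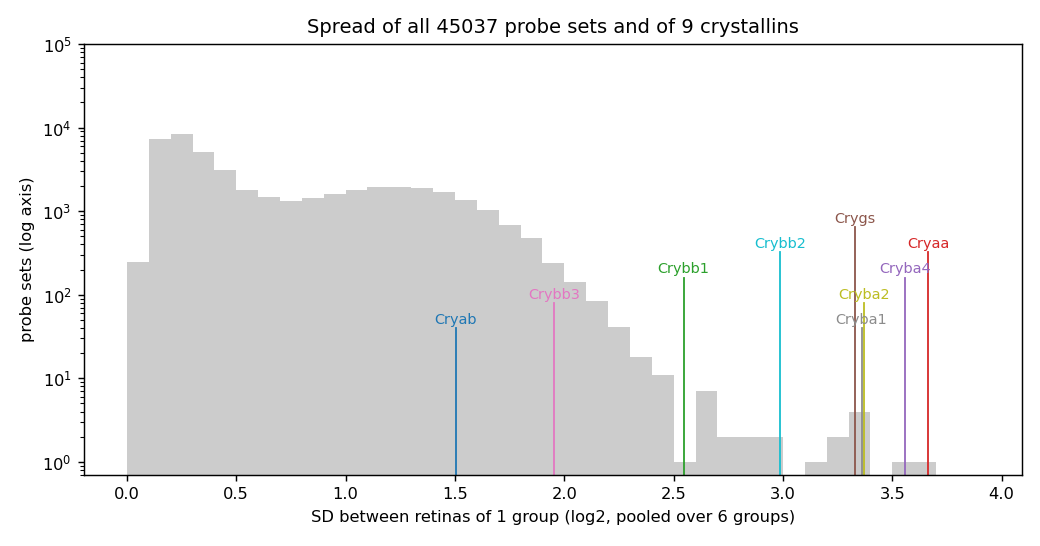
Histogram of the SD between retinas of 1 group (horizontal axis, log2 ratio, pooled over 6 groups) for all 45037 probe sets (grey bars, vertical log axis), with a coloured line at the SD of each crystallin; line heights are set for legibility. Cryaa, Cryba4, Cryba2, Cryba1 and Crygs hold the 5 highest values, and Cryab lies at 1.50.

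The fold between the highest and lowest retina was 42.7 for Cryab, 304 for Crybb3, 788 for Crybb2 and 2696 for Crybb1. It was at least 1679 for Cryaa, at least 1896 for Crygs, at least 2188 for Cryba1, at least 3505 for Cryba2 and at least 6184 for Cryba4, whose lowest retinas were at the floor. The lowest Cryab signal was still 7.29 times the median signal of its array. Cryaa lay below the array's median signal on 4 of 18 arrays. Its signal was at most 0.147 times that median in RPE65-/- retina 4 of 6 months, where it was at the floor. The lowest signal above the floor was 0.171 times the median, in control retina 2 of 6 months. Cryba4 did so on 7 arrays, Cryba2 on 5, Crybb2 on 3 and the remaining genes on 4 each. Folds that rest on signals below the array's median are set by faint values and are uncertain in size. At the upper end, signals of the members before scaling were 2311 to 4285 in RPE65-/- retina 3 of 2 months, where the highest signal on the array was 4674. A limit of the scanner or of the probes in that retina was not tested.

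All 36 pairs of crystallins correlated over the 18 retinas. Pearson's r of the log2 ratios was 0.850 to 0.999 with a median of 0.954, and Spearman's rho was 0.948 to 0.998. Each adjusted p was 1e-05, the smallest that 100000 permutations can give, for r and for rho (permutation test, two-sided, Benjamini-Hochberg over 36 pairs). Deviations from the group means gave r of 0.861 to 0.999, so the relation was within groups as well. Within the 12 arrays of 2 and 4 months r was 0.886 to 0.999 (36 of 36 pairs past 0.05, highest adjusted p = 0.00037 by permutation). Within the 6 arrays of 6 months r was 0.880 to 0.99994 (36 of 36, highest adjusted p = 0.0181 by exact permutation), while rho passed in 29 of 36 pairs (highest adjusted p = 0.0583 by exact permutation). Without the 2 retinas farthest from the median of the gene on the x axis r stayed at 0.828 to 0.998.

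Cryab did not stand outside this relation in order, but its response was flatter, a trait that Crybb3 shared in part. Its r with the 7 beta and gamma members was 0.892 to 0.953, and with Cryaa 0.892. The slope of log2 Cryab on the log2 ratio of a beta or gamma member was 0.415 to 0.716, while that of Cryaa was 0.983 to 1.43. Cryab minus Crybb2 on the log2 scale was -0.22 in RPE65-/- retina 3 of 2 months, the highest retina for both. It was -1.17 in control retina 1 of 6 months, the second highest, and -0.60 in control retina 24 of 4 months. In these 3 retinas Cryab thus stood below Crybb2 by differing amounts. In the retinas of low crystallin Cryab levelled off, at 0.466 to 0.652 in the 5 retinas of lowest Crybb2: the difference was 3.99 in RPE65-/- retina 1 of 2 months, 3.46 in RPE65-/- retina 4 of 6 months and 2.97 in control retina 2 of 6 months. Both genotypes held such retinas. Crybb3 also stayed off the floor, at 0.214 to 0.449 in these 5 retinas, and Cryab minus Crybb3 there was only 0.30 to 1.32. The slope of log2 Crybb3 on log2 Crygs was 0.548, within the range of the slopes of Cryab. Cryaa minus Crybb2 ran from -2.59 in control retina 2 of 6 months to 0.22. Cryaa was at the floor in RPE65-/- retina 1 of 2 months and retina 4 of 6 months. The differences there, -1.55 and -2.26, may therefore be larger in size.

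**Figure D3:**
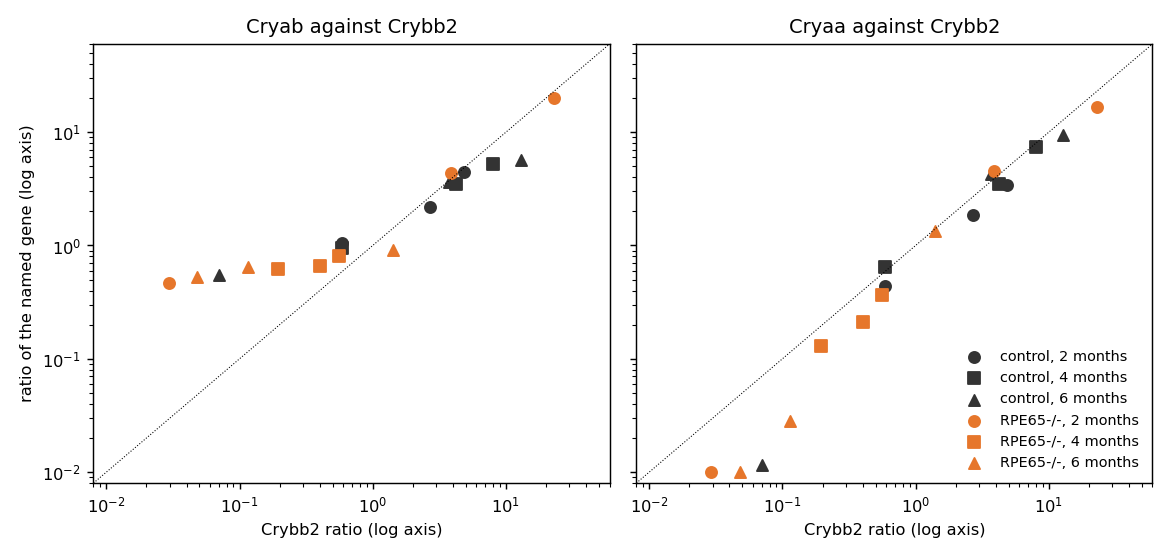
Ratios of Cryab (left) and Cryaa (right) against that of Crybb2 in 18 retinas, all on log axes, with orange for RPE65-/- and dark grey for control retinas, shapes for age, and a dotted line of equality. Cryab lies at 0.466 to 0.652 in the 5 retinas of lowest Crybb2, while Cryaa goes on down to the floor of 0.01.

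Mutant retinas had lower mean crystallin levels at 4 and 6 months, by differences that the spread between retinas did not let pass the test. Over the mean of the ages, 11 of 11 member probe sets lay below 0, with a median log2 difference of -2.13 (49.9% of all probe sets lay below 0). These are not 11 independent observations, since Cryab counts more than once and the genes follow each other from retina to retina. None of the 11 probe sets passed limma's moderated test at an adjusted p under 0.05, where 4.27% of all probe sets did. An unadjusted p under 0.05 was found in 0 of 11, against 16.3% of all. Adjusted p-values of the members ran from 0.383 to 0.969. Fewer cells of a type and less RNA per cell cannot be told apart in these retinas. The part of lens genes, most of which peaked in the same retina as the crystallins, was not tested either.

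Markers of some retinal cell types moved in the same contrast. Over the mean of ages, 8 of 11 photoreceptor genes fell in mutants and 0 rose. Of 11 measured Muller glia genes 4 rose and 0 fell, and of 13 measured genes of gliosis and stress 6 rose and 0 fell (4.27% of all probe sets passed in either direction). Of 9 measured retinal ganglion cell genes 0 rose and 1 fell, with a median log2 difference of 0.003. Summed signals of the Muller glia genes were 6063 to 6522 in mutants of 2 months, 7098 to 7411 at 4 months and 7233 to 7858 at 6 months. In controls they were 5179 to 5983, 5086 to 6232 and 6079 to 7794 in the same order. The sums of the gliosis and stress genes were 936 to 1518, 805 to 1099 and 782 to 926 in mutants against 582 to 705, 460 to 649 and 413 to 939 in controls. The groups overlapped for both sums at 6 months and for neither at 2 and 4 months. The part of these cell types in the crystallin values was not tested.

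The largest mean differences over the ages were those of Crygs (log2 -2.81 ± 1.48 SE, adjusted p = 0.383), Cryba1 (-2.76 ± 1.50) and Cryba2 (-2.72 ± 1.50). Cryaa stood at -2.54 ± 1.63, Cryba4 at -2.48 ± 1.58, Crybb2 at -2.13 ± 1.33 and Crybb1 at -1.81 ± 1.13. Crybb3 and Cryab had the smallest, -1.13 ± 0.87 and -0.99 ± 0.67. These 2 were also the genes of smallest spread, and each difference was under 2 of its standard errors. The order depended on the scale: with log2(signal + 16) Crybb3 (-0.56), Cryba4 (-0.85) and Crybb1 (-0.89) were smaller than Cryab (-0.92). Single retinas also set the size. The median of the 9 genes, -2.48, was -1.32 without RPE65-/- retina 1 of 2 months and -3.24 without RPE65-/- retina 3 of 2 months. Leaving out 1 retina in turn gave -3.55 to -1.46 for Cryaa, -1.41 to -0.51 for Cryab and -1.81 to -0.43 for Crybb3.

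At 2 months 6 of 9 genes lay below 0, as did 52.2% of all probe sets, with log2 differences from -1.31 (Crygs) to 0.97 (Crybb3), and 0 of 11 probe sets passed (1.15% of all did; 0 of 11 against 10.3% at an unadjusted p under 0.05). The sign at this age rested on single retinas. Without RPE65-/- retina 1 all 9 differences lay above 0, at 1.99 to 3.08, and without RPE65-/- retina 3 all 9 lay below 0, at -3.46 to -0.61. No gene had its mutants and controls apart at this age, where 9.95% of all probe sets had all 3 mutants below all 3 controls.

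At 4 months all 9 genes lay below 0, against 48.1% of all probe sets, with log2 differences from -3.91 (Cryba4) to -1.90 (Cryab), and 0 of 11 probe sets passed (1.01% of all did; 0 of 11 against 10.4% at an unadjusted p under 0.05). In 9 of 11 probe sets, 1 for each gene, all 3 mutants lay below all 3 controls, as in 6.87% of all probe sets. The 9 genes are not 9 independent observations, since they follow each other from retina to retina. The lowest control was retina 17 for each of them. Pigment epithelium and melanocyte genes, of which 13 of 13 were measured, also differed between retinas here: their summed signal was 1721 to 6246 in controls and 5929 to 6681 in mutants. Their part in the crystallin values was not tested.

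At 6 months all 9 genes again lay below 0, against 49.4% of all probe sets, from -4.02 (Cryba2) to -1.73 (Cryab), and 0 of 11 probe sets passed (0.688% of all did; 0 of 11 against 8.50% at an unadjusted p under 0.05). Groups overlapped for every gene, because control retina 2 was low and RPE65-/- retina 5 stood near the median, with ratios of 0.887 to 1.41. All 3 mutants lay below all 3 controls in 8.14% of all probe sets at this age. Single retinas moved the size in both directions. The 9 differences were -2.57 to -0.83 without control retina 1 and -2.31 to -1.46 without RPE65-/- retina 4. They were -6.46 to -2.51 without control retina 2 and -5.80 to -1.94 without RPE65-/- retina 5.

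**Figure D4:**
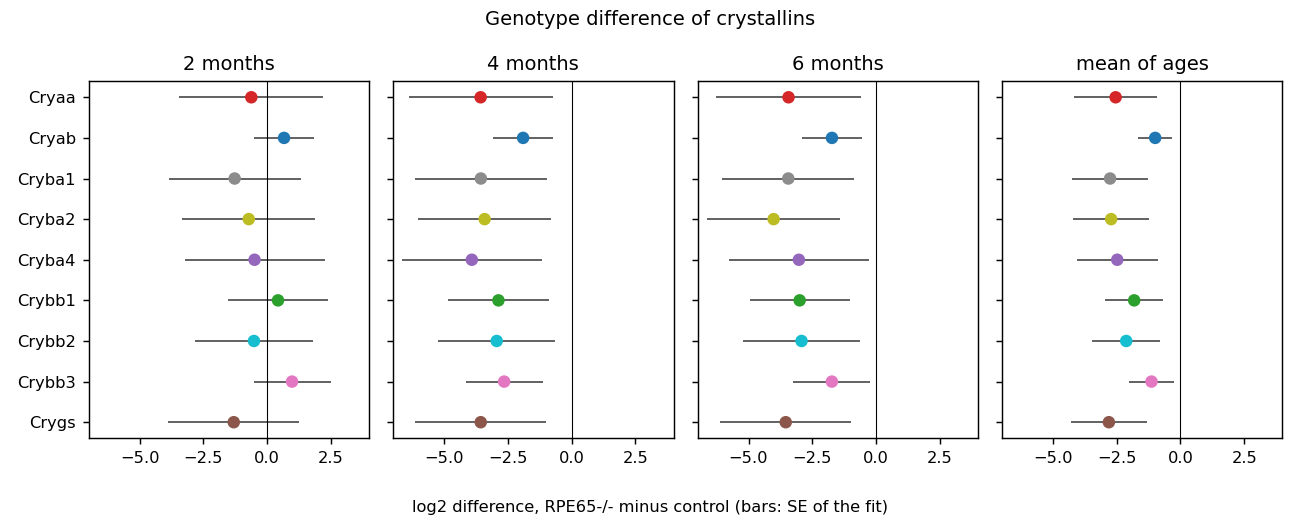
Log2 difference, RPE65-/- minus control (horizontal axis), of 9 crystallins at 2, 4 and 6 months and averaged over age, from 3 retinas per group, with bars for the standard error of the fit. All 9 points lie left of 0 at 4 and 6 months and in the mean, and none passed an adjusted p of 0.05.

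Age left no difference past the threshold. Moderated F-tests of age gave 0 of 11 probe sets in controls (0.0444% of all passed, adjusted p of the members 0.954 to 0.996) and 0 of 11 in mutants (0.0244% of all, 0.572 to 0.982). The test of whether the genotype difference changed with age gave 0 of 11 (0.0111% of all, adjusted p = 0.99991 for each member), and 0 of 11 had an unadjusted p under 0.05 in any of these 3 tests. Mean ratios of Cryba1 in controls were 3.42 ± 2.64, 4.23 ± 3.03 and 3.54 ± 4.34 (SD, n = 3) at 2, 4 and 6 months. In mutants they were 9.18 ± 11.4, 0.299 ± 0.160 and 0.365 ± 0.577. The SD exceeded the mean in the mutants of 2 and 6 months and in the controls of 6 months.

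One setting moved 1 gene past the threshold. When RPE65-/- retinas 2 and 3 of 2 months, the 2 mutants highest for the crystallins, were left out, a choice made after seeing the data, Crybb3 was lower over the mean of the ages (log2 -2.54, adjusted p = 0.0330; 0.183 to 0.806 over the other alternatives) and the remaining 10 probe sets did not pass. These retinas were chosen by the level tested, so this value is a description of what they carry.

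Whether Cryab and Cryaa differ from the other crystallins in their genotype difference was compared within arrays, in 15 pairs, with mutants and controls exchanged within each age (exact permutation test, two-sided, 8000 assignments, smallest p 0.00025). Cryab lay above all 7 beta and gamma members, most against Crygs by 1.82 (exact p = 0.0538), Cryba1 by 1.77 (exact p = 0.0613) and Cryba2 by 1.73 (exact p = 0.0760). Against Cryaa it lay 1.55 higher (exact p = 0.136). None of the 15 passed after Benjamini-Hochberg adjustment, with a lowest adjusted p of 0.350 (0.0563 to 0.689 over the alternatives). The sign was not the same on other scales: Cryab lay above 6 of 7 with log2(signal + 4) and above 4 of 7 with log2(signal + 16). Cryaa lay above Crygs by 0.26, Cryba1 by 0.22 and Cryba2 by 0.18 and below the other 4, by up to 1.41 against Crybb3 (log2 -1.41, exact p = 0.154).

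Other crystallins of the lens were listed by name, and 5 of 7 had a probe set of their own. These 5 had a median r of 0.754 with the mean of the 7 beta and gamma members, and all 5 were highest in RPE65-/- retina 3 of 2 months, where Crygd was at 115 and Crygb at 46.7. None of the 5 passed at any age or over the ages, with a median log2 difference of -1.58. Crygd had the lowest adjusted p among them over the ages, 0.155 (log2 -3.70 ± 1.30). Their summed signal ranged from 5.73 to 8418 within the mutants of 2 months and from 192 to 673 in the controls of 4 months.

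Crygb and Crygd, gamma crystallins that the lens makes mostly early in life, departed from the members in single retinas. In control retina 3 of 6 months the 9 members stood at 1.13 to 4.32, while Crygb was at 0.195 and Crygd at 0.315. RPE65-/- retina 5 of 6 months had members at 0.887 to 1.41, Crygb at 0.229 and Crygd at 0.0210. The reverse held in control retina 9 of 2 months, with members at 0.441 to 1.06, Crygb at 1.78 and Crygd at 3.13. Against Crybb2 on the same array, Crygb was higher in 5 of 6 retinas of 2 months, with log2 differences of -0.35 to 1.59, and lower in all 6 retinas of 6 months, at -4.25 to -0.48. Crygd was higher in all 6 retinas of 2 months, at 0.09 to 2.41, and at -6.07 to 0.68 at 6 months. At 4 months both genes were lower than Crybb2 in all 3 mutants and higher in 2 of 3 controls. Crygb was at -1.35 to -0.38 in the mutants and at 0.63, 1.58 and -0.86 in controls 14, 17 and 24. Crygd was at -4.14 to -1.09 in these mutants and at 0.47, 1.51 and -0.64 in these controls. Many of these values are faint. The 5 listed crystallins, Crygb and Crygd among them, had a summed signal of 19.1 to 38.4 in mutants of 4 months. In mutants of 6 months it was 4.41 to 24.6. The median signal of RPE65-/- retina 4 of 6 months was 12.5, and Crygb was at the floor there. Differences that rest on such signals are uncertain in size. The age of 6 months carries the difference between arrays given above, and this pattern was seen before it was described, so it has no test here.

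**Figure D5:**
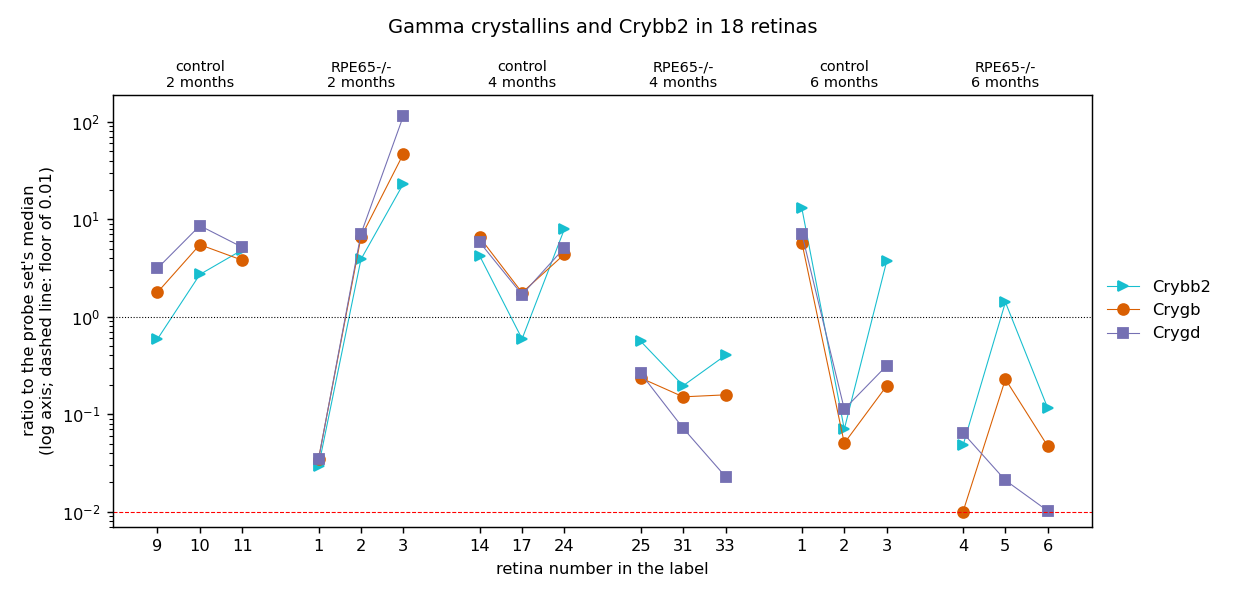
Ratios of Crygb (orange circles), Crygd (purple squares) and Crybb2 (cyan triangles) to the median of each probe set (vertical log axis) in 18 retinas (horizontal axis, by group), with lines only to guide the eye. Crygd lies at or above Crybb2 in all 6 retinas of 2 months, and both gamma crystallins lie far below it in control retina 3 and RPE65-/- retina 5 of 6 months.

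Genes of lens fibre and lens epithelium other than crystallins were less uniform. Of 18 listed, 14 were measured, with a median r of 0.662 with the mean of the beta and gamma members, and 0 of 14 passed at any age or over the ages (median log2 -0.19 over the ages). In 12 of 14 the highest retina was RPE65-/- retina 3 of 2 months. There Bfsp1, a protein of the beaded filament of fibre cells, reached 86.3, Lim2, a fibre membrane protein, 83.8, Mip, the aquaporin of fibre cells, 69.9, and Grifin, a lens galectin, 61.0. Foxe3, a transcription factor of the lens epithelium, was at 1.78 in that retina against 0.0369 to 0.295 in the other 17. The summed signal of the 14 genes was 4880 there, 1339 in control retina 1 of 6 months and 554 to 977 in the other 16. Such a sum weighs bright genes most, so it can hide changes of single genes. Over the 18 retinas Lim2 ran from 0.318 to 83.8 and Mip from 0.0956 to 69.9. Prox1 ran only from 0.739 to 1.31 and Tdrd7 from 0.661 to 1.58. By group the summed signal was 676 to 4880 in the mutants of 2 months, 718 to 756 at 4 months and 644 to 673 at 6 months. In controls it was 569 to 717, 554 to 977 and 665 to 1339 in the same order, and 0 of the 14 genes were at the floor in any retina. Bfsp2, the partner of Bfsp1, and Hsf4, a heat shock factor of the lens, had their highest values in other retinas. The part of these lens genes in the crystallin values was not tested.

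In retinas of moderately high crystallin the fibre genes differed among themselves. The probe sets of Mip and Bfsp1 are dim, with median ratios of 0.467 and 0.826, while that of Lim2 has a median of 1. In RPE65-/- retina 2 of 2 months members were at 3.14 to 5.64, and Mip at 3.13, Lim2 at 2.98 and Bfsp1 at 1.18 were all above their medians. In control retina 11 of 2 months members were at 3.13 to 6.16, Mip at 0.480, close to its median, Lim2 at 1.31 and Bfsp1 at 1.79. The 2 retinas highest for the crystallins were also the 2 highest for Bfsp1, Lim2, Mip and Grifin, with 17.3, 8.95, 5.33 and 7.15 in control retina 1 of 6 months.

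Small heat shock proteins, the family of the alpha crystallins, were listed as 8 genes, all measured, with a median r of 0.198. Hspb1, a chaperone induced by stress and also made in lens, was the nearest, with r of 0.667 with the beta and gamma mean and 0.763 with Cryab, and stood at 20.4 in RPE65-/- retina 3 of 2 months and 3.39 in control retina 1 of 6 months against 0.709 to 1.69 in the other 16. Hspb2 lies within the annotated span of Cryab. Its probe set is dim, ranged over 0.387 to 2.14 and had an r of 0.228 with Cryab.

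Among 11263 genes whose probe sets were not dim, those most like the mean of the 7 beta and gamma members over 18 arrays were Crygb (r 0.936), Crygd (0.841), Lims1 (0.820), Cd24a (0.813) and Grifin (0.804). Most like Cryab were Cd24a (0.909), Grifin (0.904), Lim2 (0.878), Fbxw22 (0.865) and Crygb (0.860), and most like Cryaa were Crygb (0.885), Lims1 (0.880), Crygd (0.774), Cd24a (0.734) and Etv5 (0.733). These r were used for ranking and have no p. Mip, kept out of the ranking by its dim probe set, had an r of 0.840 with that mean and 0.896 with Cryab. Crygb, Crygd, Cd24a and Lims1 were in the lists of both Cryaa and the beta and gamma mean. Lims1, an adaptor of focal adhesions, ranged over 0.713 to 1.24 only. Cd24a, a surface glycoprotein, ranged from 0.426 to 27.6, highest again in RPE65-/- retina 3 of 2 months.

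Neighbours in the genome (RefSeq annotation of GRCm38.p6) that are not crystallins had r of -0.30 to 0.56 with the member beside them, over 12 measured genes. The highest was Nufip2, next to Cryba1, which ranged over 0.729 to 1.33. Cryba4 and Crybb1, whose annotated spans on chromosome 5 overlap, had an r of 0.954, and Crybb2 and Crybb3, adjacent on the same chromosome, an r of 0.893. Both lie within the range over all 36 pairs, 0.850 to 0.999.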

How the data were processed

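RNA of 18 retinas was measured on Affymetrix arrays. The deposited values are ratios; RMA and GCOS are named per the submitters' processing notes, and no builds or versions are given in the sources used here. As the values show, the authors' deposited ratio is a signal scaled by a factor per array and divided by the probe set's median over 18 arrays, or by a fixed divisor where that median was lower (dim, 45.7% of probe sets), with a floor of 0.01. Array-scaled signals were recovered from steps of 0.1 (within 0.02 of a step). Control sets (64) were left out. Of the others, 34945 probe sets named 1 gene, 932 several and 9160 none. The log2 ratio was fitted with limma 3.58.1 in R 4.3.3 (6 group means, 12 residual degrees of freedom), adjusted with Benjamini-Hochberg over 45037 probe sets, threshold 0.05, after a check on simulated data. Python 3.11.15, numpy 2.4.6, pandas 2.3.3, scipy 1.17.1 and matplotlib 3.10.9 were used for the other steps. Errors of log2 differences are standard errors. Named genes were the members, listed genes and the 5 to 10 genes most like them. The members and lists were chosen with earlier results of these data known. Alternatives were other scales, filters, normalizations, priors, weights, an Xist covariate and omitted arrays. The number of arrays limits precision. A comparison of member proteins was not run.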

Additional observations from a re-analysis of the deposited data

How the results depend on the processing

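No member passed at any age or over the ages under the alternatives in which 1 choice was changed at a time. The exception was added after seeing the data: without RPE65-/- retinas 2 and 3 of 2 months, 1 probe set passed over the ages (Crybb3, log2 -2.54, adjusted p = 0.0330, against 0.183 to 0.806 under the others). The median SD of the 9 genes, 3.33, was 2.17 with log2(signal + 16), 2.47 without those retinas, and 2.43 to 3.48 on leaving out 1 array. Signs over the ages, at 4 months and at 6 months never reversed. At 2 months they did. With log2(signal + 16) the log2 difference was 0.36 for Cryaa, 0.57 for Cryba2, 1.03 for Cryba4 and 0.13 for Crybb2, and with log2(signal + 4) 0.0848 for Cryba2 and 0.63 for Cryba4. Quantile normalization gave -0.31 for Cryab, -0.71 for Crybb1 and -0.11 for Crybb3, and leaving out RPE65-/- retinas 2 and 3 gave -2.22, -4.58 and -3.24. Leaving out 1 array gave -2.73 to 2.63 for Cryaa, -0.61 to 2.10 for Cryab, -3.45 to 2.10 for Cryba1, -3.16 to 2.73 for Cryba2, -3.31 to 2.98 for Cryba4, -1.80 to 2.93 for Crybb1, -2.55 to 2.26 for Crybb2, -1.04 to 3.08 for Crybb3 and -3.46 to 1.99 for Crygs. The cause was not tested. With an Xist covariate, which stands for sex, the differences over the ages were -3.15 to -1.04 (lowest adjusted p = 0.513). No paired analysis was possible because mutants and controls of an age share no retina number in the labels. Protein identity of the members was not run, since no protein sequences were used here. Signals below the array's median limit the size of the lowest ratios, and 3 retinas per group limit every genotype comparison.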

Other observations

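Enzyme crystallins, which serve as lens proteins in some other vertebrates, and proteins with beta-gamma domains did not follow the lens crystallins. All 7 listed were measured, with a median r of -0.055 with the mean of the 7 beta and gamma members. Crym, a cytosolic thyroid hormone binding protein, rose in mutants over the mean of the ages (log2 0.59 ± 0.09 SE, adjusted p = 0.00167 by limma with Benjamini-Hochberg), with ratios of 0.989 to 1.43 against 0.669 to 1.01 in controls. It was above all 3 controls of its age in 9 of 9 mutants. It passed in 28 of 29 alternatives (log2 0.45 to 0.64, adjusted p 6.24e-05 to 0.0511), and not with the Xist covariate (0.45, adjusted p = 0.0511). Crybg2 fell (log2 -1.50 ± 0.26, adjusted p = 0.00407), below all 3 controls of its age in 7 of 9 mutants. Its probe set is dim, and it passed in 26 of 28 alternatives (adjusted p 0.00297 to 0.0627), not with log2(signal + 16), where the difference was -0.17, nor with the Xist covariate. Over the ages 4.27% of all probe sets passed. The share of all probe sets with as many mutants beyond the controls of their age is not given here.

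Among the small heat shock proteins Hspb6, a chaperone best known from muscle, fell in mutants (log2 -0.53 ± 0.08, adjusted p = 0.000843 by limma), with ratios of 0.648 to 0.950 in mutants and 1.05 to 1.35 in controls. It was below all 3 controls of its age in 9 of 9 mutants and passed in 29 of 29 alternatives (adjusted p 1.82e-05 to 0.0188). Of the 8 listed, Hspb6 alone passed over the ages, where 4.27% of all probe sets did, and the median log2 difference of the list was -0.098. All 3 mutants lay below all 3 controls in 9.95%, 6.87% and 8.14% of all probe sets at 2, 4 and 6 months. In RPE65-/- retina 3 of 2 months, where the lens crystallins peaked, Hspb6 stood at 0.648, the lowest of the 18 retinas.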
